A study of Mus musculus with 6 samples.

Results

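The genes described here are 10 transcription and splicing factors of the epithelial-mesenchymal switch, measured in mouse colorectal cancer cells. They are Esrp1, Esrp2, Elf3, Grhl2, Klf4 and Klf5 on the epithelial side and Zeb1, Zeb2, Snai2 and Twist1 on the mesenchymal side. Their probe sets were found by gene symbol, taking each one whose platform annotation gave that symbol alone; the rule itself uses no measured value, although the genes were proposed with earlier results of these data known. This gave 25 of the array's 45037 probe sets that are not array controls, and 10 of its 18193 named genes. RNA came from 1 primary culture of iKAP cells, a genetically engineered mouse model of colorectal cancer, and all 6 arrays share this background. The control cells stably carried GFP and the other cells stably carried an IRF2 open reading frame, each from a pLenti6.3 lentiviral construct, and each group was measured on 3 arrays. The cells were grown in a medium with a tetracycline-free additive, and the labels name no inducer, no Cre driver and no age. Whether replicate arrays stem from separate cultures is in no label, so the p-values cover array-to-array spread alone, possibly technical in origin.

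Epithelial cells hold their junctions and polarity through factors that keep adhesion genes on, and they can lose them in the epithelial-mesenchymal transition. ZEB1, ZEB2, SNAI2 and TWIST1 act at E-box sequences, and the ZEB and SNAI proteins are best known as repressors of the E-cadherin gene Cdh1. ESRP1 and ESRP2 are RNA-binding proteins that select epithelial exons in genes such as Fgfr2, Cd44 and Ctnnd1, while GRHL2, ELF3, KLF4 and KLF5 sustain epithelial gene programmes. Epithelial and mesenchymal factors repress one another in many tissues, and the transition can be partial.

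Array medians lay between 18.2 and 18.7, and the 40th percentile of probe set means, an intensity of 11.3, was the limit below which nothing was tested. The gene named by the labels went against them: the Irf2 probe set read 62.6 ± 2.53 (SD, n = 3) in the GFP group and 36.3 ± 0.934 (SD, n = 3) in the group labelled IRF2. Neither the stretch of transcript it reads nor the open reading frame's species was known here, so the group is called "labelled IRF2". The 3'/5' ratio of the transferrin receptor control was 3.61 to 3.78 in the GFP group and 3.81 to 4.47 in the other, and for 18S rRNA the readings were 1798 to 2034.5 and 2099 to 2254.5. These controls moved with the group, and their part in the results was not tested. The 3'/5' ratios of beta-actin overlapped between the groups.

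Of the 10 factors, Zeb1 and Zeb2 were higher and Esrp2, Snai2, Klf5 and Twist1 were lower in the group labelled IRF2. Elf3, Grhl2 and Klf4 did not pass the test, and Esrp1 lay below the intensity filter and was not tested. The fold of the called factors ran from 0.721 to 1.24. Each gene was represented by its brightest probe set, log2 intensities were fitted with limma over 12795 genes, and p-values were Benjamini-Hochberg adjusted across those genes with a threshold of 0.05. The share of all genes called was 36.3%, 16.5% higher and 19.8% lower, against 6 of the 9 factors tested, 2 higher and 4 lower. The arrays of the groups did not overlap for 6 of these 9 factors, and for 46.2% of all genes tested. The median size of the change was 0.22 on the log2 scale over the 9 factors and 0.09 over all genes tested. Of the 5 epithelial factors tested, 2 were lower and none higher, and of the 4 mesenchymal factors, 2 were higher and 2 lower.

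**Figure D1:**
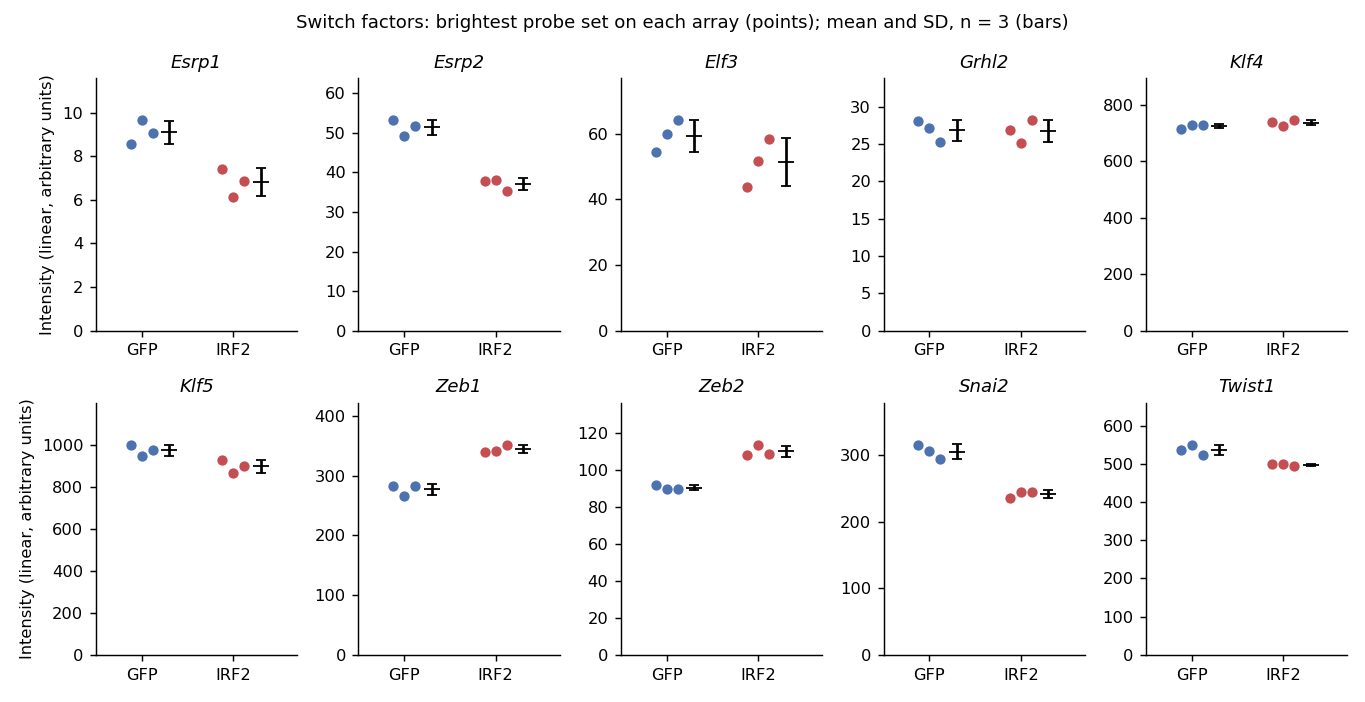
Intensity of each factor's brightest probe set (vertical axis, linear arbitrary units from 0, own scale per panel) on the 3 GFP control arrays (blue) and the 3 arrays labelled IRF2 (red), with the mean and SD at the side. The points of Esrp2, Zeb1, Zeb2 and Snai2 separate clearly, those of Klf5 and Twist1 narrowly, and those of Elf3, Grhl2 and Klf4 overlap. Esrp1 separates at intensities below the filter.

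Of the epithelial splicing factors, Esrp2 fell in the group labelled IRF2 and Esrp1 was too dim to test. Esrp2 read 53.2, 49.2 and 51.8 in the GFP group and 37.9, 38.0 and 35.2 in the group labelled IRF2. All 3 values of the second group lay below all 3 of the first, and the fall came to 0.47 on the log2 scale (log2 fold change -0.47, SE 0.07, limma adjusted p = 5.13e-05), a fold of 0.721. This was the largest change among the factors tested, larger in size than that of 96% of all genes tested. A second Esrp2 probe set, of the kind whose name marks probes shared between transcripts, read 33.0, 37.2 and 33.5 against 25.8, 26.5 and 27.3. It fell as well (log2 fold change -0.38, SE 0.08, adjusted p = 0.00178 in the limma fit of all 27022 probe sets above the filter; -0.25 with 16 added before the log). In bulk RNA such as this, fewer cells of a type and less RNA per cell cannot be told apart.

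Esrp1, the paralogue that shares Esrp2's role in choosing epithelial exons, was close to the floor of the array. Its single probe set read 8.57, 9.64 and 9.08 in the GFP group and 7.41, 6.15 and 6.87 in the group labelled IRF2, where the tryptophan control probe sets, which no mouse transcript should fill, read up to 6.52. The groups did not overlap, and the difference was -0.42 on the log2 scale (SE 0.09). It was not tested in the filtered data; with no filter its limma adjusted p was 0.00358. With 16 added to every intensity before the log, the difference was -0.14. Its size at this level thus depends on how dim values are treated.

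Elf3, an ETS-family factor of epithelial cells, was lower on average without passing the test. It read 54.3, 59.9 and 64.1 in the GFP group and 43.7, 51.8 and 58.3 in the group labelled IRF2. The groups overlapped, with 1 array labelled IRF2 above the lowest control array (log2 fold change -0.22, SE 0.09, limma adjusted p = 0.0808). The call turned on single arrays: leaving out GFP replicate 1 made it pass (-0.28, adjusted p = 0.0395), as did leaving out IRF2-labelled replicate 3 (-0.32, adjusted p = 0.0155). Leaving out IRF2-labelled replicate 1 brought the difference to -0.11 (adjusted p = 0.374), and the other 3 arrays left it between -0.23 and -0.16, not passing. It also passed with the replicate number as a block (adjusted p = 0.0139), the lowest value over its alternatives.

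The promoter of Elf3 is shown because it holds an E2-box, the E-box form that ZEB and SNAI proteins bind, and because it was the only 1 of the 4 factors with an entry in the promoter table used (Elf3, Klf4, Zeb2 and Twist1) to do so. The E2-box was searched as CACCTG or CAGGTG, which are the same site read on either strand, in the 250 bases before each start site of RefSeq's GRCm38.p6 promoters. Of all 32851 such windows, 17.2% hold it. The stretch below is chr1:135258577-135258642 on the minus strand, with the E2-box in capitals and its first base 140 bases before the start.
Elf3: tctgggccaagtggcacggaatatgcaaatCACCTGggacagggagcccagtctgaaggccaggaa
A match is a description of these letters, and no match says nothing about the factor.

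Grhl2, the grainyhead-like factor that maintains epithelial junction genes, showed no difference larger than its spread. Its brightest probe set read 28.0, 27.1 and 25.3 in the GFP group and 26.8, 25.1 and 28.1 in the group labelled IRF2. The groups overlapped throughout (log2 fold change -0.0065, SE 0.08, limma adjusted p = 0.964), and the 95% interval ran from -0.17 to 0.16. Its other tested probe sets differed by -0.04 and -0.03, and the dimmest lay below the filter, at 7.40 ± 0.604 and 7.68 ± 0.687 (SD, n = 3 each). The sign of so small a difference is not stable, and leaving out single arrays turned it in 3 of 6 cases.

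The Krüppel-like factors differed little. Klf4, a factor of differentiated epithelium and of the reprogramming set, read 714, 729 and 727 in the GFP group and 738, 725 and 744 in the group labelled IRF2. The groups overlapped (log2 fold change 0.02, SE 0.02, limma adjusted p = 0.505) and the 95% interval ran from -0.03 to 0.08. Its second probe set differed by 0.01 (SE 0.03), and that sign turned without the replicate 2 GFP control array.

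Klf5, a factor of proliferating crypt epithelium, fell slightly. It read 999, 946 and 975 in the GFP group and 927, 865 and 897 in the group labelled IRF2. The lowest control array stayed above the highest of the others (log2 fold change -0.12, SE 0.03, limma adjusted p = 0.00451). A second probe set had a like difference that did not pass, at -0.11 (SE 0.06, adjusted p = 0.192 over all probe sets), although its groups did not overlap. The call of Klf5 was lost without the intensity trend (adjusted p = 0.0622) and when its 3 probe sets were averaged (-0.08, adjusted p = 0.222, at the top of a range over its alternatives from 9.25e-04). That mean takes in a probe set below the filter. In the fit of all probe sets its adjusted p was 0.00837, and the call was lost there when IRF2-labelled replicate 2 was left out (adjusted p = 0.0533, in a range of 0.00273 to 0.0898).

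Zeb1, the zinc-finger and homeodomain repressor of Cdh1 and of the miR-200 genes, rose. Its brightest probe set read 282, 266 and 283 in the GFP group and 339, 341 and 351 in the group labelled IRF2. The lowest of the second group exceeded the highest of the first by a wide margin against the spread (log2 fold change 0.31, SE 0.03, limma adjusted p = 4.47e-06), a fold of 1.24. A dimmer probe set read 20.3, 22.5 and 21.6 against 26.5, 24.7 and 23.2. That difference of 0.21 (SE 0.08) did not pass over all probe sets (adjusted p = 0.0772), although its groups did not overlap. The other 2 Zeb1 probe sets differed by 0.05 (SE 0.08) and 0.04 (SE 0.08), the latter at 4.52 ± 0.285 and 4.65 ± 0.132 (SD, n = 3 each) and below the filter. All 4 Zeb1 probe sets thus had a positive sign, and their mean rose by 0.16 (limma adjusted p = 0.0331, at the top of a range over its alternatives from 2.72e-07).

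Zeb2, the paralogue of Zeb1, depended on the probe set. The brightest read 91.9, 89.7 and 89.9 in the GFP group and 108, 114 and 109 in the group labelled IRF2. Its groups lay well apart and it rose (log2 fold change 0.28, SE 0.05, limma adjusted p = 2.61e-04), a fold of 1.22. A second probe set read 66.9, 62.7 and 65.2 against 60.7, 64.5 and 57.2, with overlapping groups and a difference of -0.10 (SE 0.06, adjusted p = 0.297 over all probe sets). Another read 67.0, 109 and 86.1 on the GFP control arrays, the widest spread among the 25 probe sets relative to its mean, and 76.4, 74.4 and 81.2 in the group labelled IRF2. Its difference of -0.15 (SE 0.12, adjusted p = 0.430) became 0.02 with GFP replicate 2 left out and -0.33 with GFP replicate 1 left out, where it passed (adjusted p = 0.0117, at the bottom of a range over its alternatives up to 0.885).

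The remaining Zeb2 probe sets were dim, with differences of 0.05 (SE 0.08) and -0.01 (SE 0.09), the second below the filter. In the mean of all 5 probe sets the difference in Zeb2 was 0.02 and the call was lost (adjusted p = 0.848, at the top of a range over its alternatives from 1.32e-04). A log2 ratio was taken of the brightest probe set to the one that differed by -0.10. It was 0.48 ± 0.03 in the GFP group and 0.86 ± 0.06 in the group labelled IRF2 (SD, n = 3 each). The ratio thus shifted by 0.38, without overlap between the groups and with an exact two-sided permutation p of 0.1, the smallest that 3 against 3 arrays can give, and 0.125 adjusted over the 5 ratios examined. The probe set with the widest spread was brighter than the one in this ratio, with group means of 87.5 and 77.3 against 65.0 and 60.8. No ratio to it was examined. Which part of the Zeb2 transcript each probe set reads was not known here. RefSeq's promoter table lists 4 start sites for Zeb2, and any link between these and the probe sets was not tested.

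**Figure D2:**
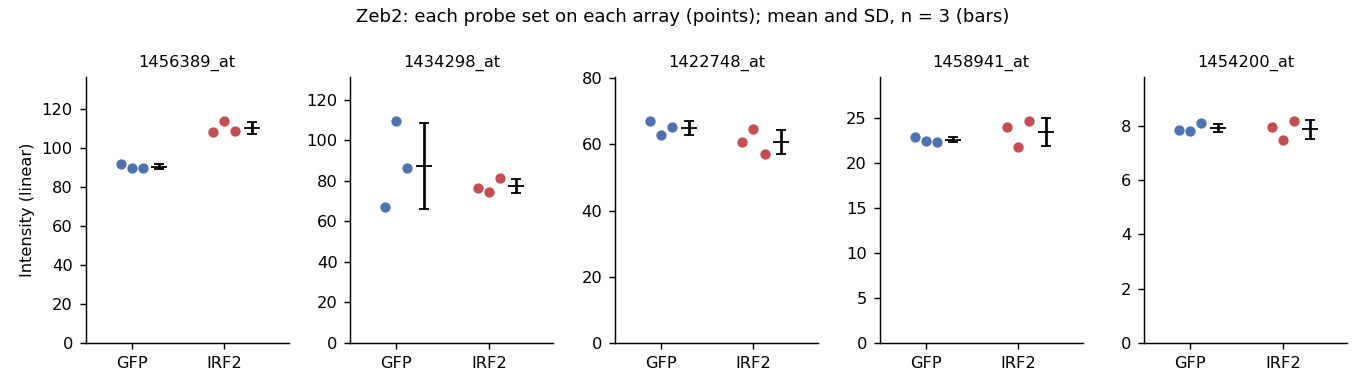
Intensity of the 5 Zeb2 probe sets (vertical axis, linear from 0, own scale per panel) on the 3 GFP control arrays (blue) and the 3 arrays labelled IRF2 (red), with the mean and SD. The groups separate for the brightest probe set and overlap for the other 4.

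Snai2, the zinc-finger repressor also known as Slug, fell. Its brightest probe set, whose name marks probes that can bind other transcripts, read 316, 307 and 294 in the GFP group and 235, 245 and 245 in the group labelled IRF2. The groups were far apart (log2 fold change -0.34, SE 0.04, limma adjusted p = 3.46e-06), a fold of 0.791. A second probe set without that mark read 64.5, 67.3 and 65.3 against 57.3, 52.8 and 57.3. It fell too, with no overlap (log2 fold change -0.24, SE 0.06, adjusted p = 0.00888 over all probe sets).

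Twist1, a basic helix-loop-helix factor of mesoderm and of invasive tumour cells, fell by a small amount. Its only probe set read 536, 550 and 524 in the GFP group and 498, 500 and 494 in the group labelled IRF2. The groups did not overlap, and the change was -0.11 on the log2 scale (SE 0.03, limma adjusted p = 0.00609), smaller than that of many genes: 56.1% of all genes tested changed by no more. In the fit of all probe sets its adjusted p was 0.01, and the call was lost there without the intensity trend (adjusted p = 0.0686, in a range of 0.00812 to 0.0686).

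Ratios within an array restate, for pairs of factors, the difference between the changes given above. No rule set the pairs, here or for the Zeb2 probe sets, so the shifts are no separate evidence. The log2 ratio of Zeb1 to Esrp2 went from 2.43 ± 0.02 to 3.22 ± 0.09 (SD, n = 3 each), a shift of 0.79. That of Zeb1 to Snai2 went from -0.14 ± 0.08 to 0.51 ± 0.03, a shift of 0.65 between a mesenchymal factor that rose and one that fell. That of Klf5 to Klf4 shifted by -0.14. Each of these 3 had an exact two-sided permutation p of 0.1, the smallest the design allows, and 0.125 adjusted over the 5 ratios. Between the paralogues Zeb1 and Zeb2, in their brightest probe sets, the shift was 0.03 (exact permutation p = 0.5).

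Over single probe sets, 20 of the 25 were above the filter, of which 2 were called higher and 6 lower. Among all 27022 probe sets tested, 28.7% were called, 13.0% higher and 15.7% lower. The groups did not overlap in 10 of the 20, and in 40.5% of all probe sets tested. For Esrp2 and Snai2 both probe sets were called in the same direction, whereas for Zeb1, Zeb2 and Klf5 the brightest alone was.

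**Figure D3:**
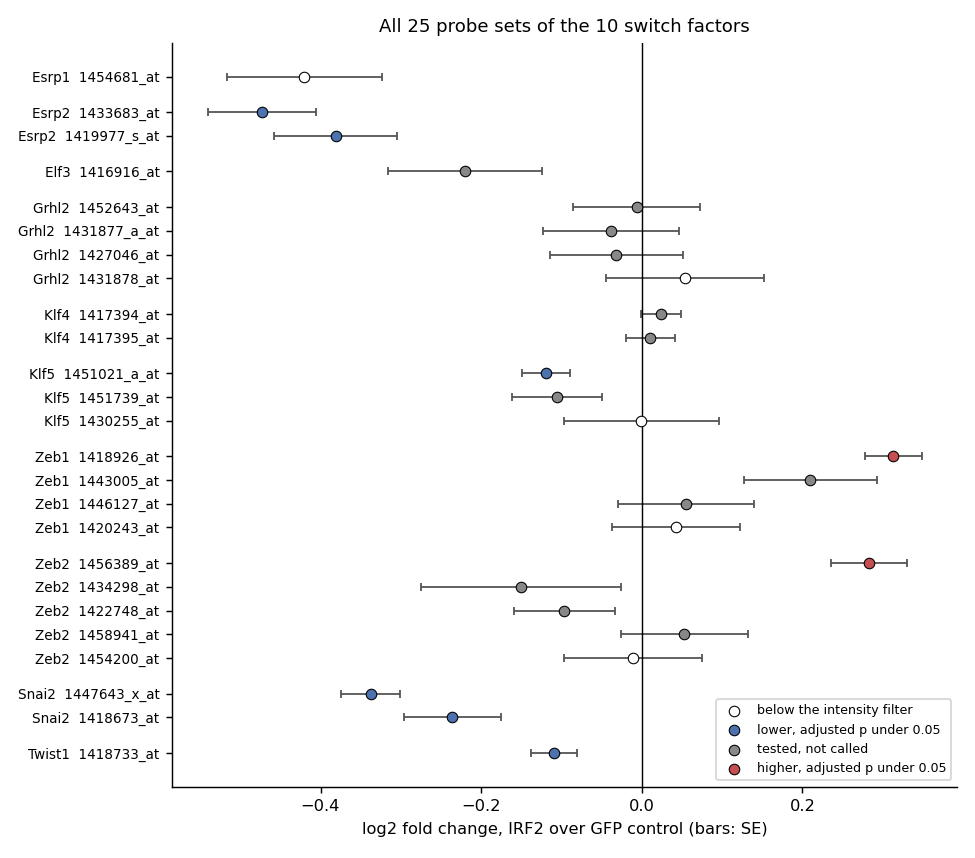
log2 fold change of each of the 25 probe sets (horizontal axis, labelled IRF2 over GFP control; bars are the SE of the limma fit), coloured by call over all probe sets. The probe sets of Esrp1, Esrp2 and Snai2 lie to the left of 0 and those of Zeb1 to the right, while those of Zeb2 lie on both sides.

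Other regulators of epithelial identity were lower where they were called. Of 12 listed, 11 were on the array under a single symbol and 6 were above the filter; 4 fell and none rose, where 19.8% of all genes tested were called lower, and the median was -0.22, against -7.04e-04 over all genes tested. Grhl3, a paralogue of Grhl2 known from the epidermal barrier, fell from 40.3 ± 3.73 to 19.2 ± 1.10 (SD, n = 3 each), or -1.07 on the log2 scale (SE 0.09, limma adjusted p = 1.49e-07; -0.68 with 16 added before the log). The forkhead gene Foxa3 fell by 0.49 (SE 0.09), but by 0.21 with 16 added before the log. Foxa3 read 13.6 ± 0.827 in the GFP group and 9.69 ± 0.504 in the group labelled IRF2 (SD, n = 3 each). The filter's limit of 11.3 lay between these means, so this call, 1 of the 4, rests on signal near the limit. Grhl1 was lower by 0.34 (SE 0.11; -0.19 with 16 added) and the pioneer factor gene Foxa1 by 0.09 (SE 0.03). Both of these calls were lost without GFP replicate 3, without IRF2-labelled replicate 1 and without the intensity trend, each of which left 2 calls in the list. Under the stricter filter 2 members of the list were tested and 1, Foxa1, was called. Rbm47, an RNA-binding gene of epithelia, and Ovol2, a repressor of Zeb1, had differences of -0.09 (SE 0.07) and -0.06 (SE 0.10) that did not pass.

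Epithelial genes known to be bound or repressed by ZEB and SNAI factors were lower in 14 of 23 cases. Of 32 symbols listed, 23 were tested. Of these, 14 fell and 1 rose, against 19.8% and 16.5% of all genes tested, at a median of -0.24. Spint2, an inhibitor of membrane serine proteases, fell from 348 ± 4.36 to 149 ± 5.39 (SD, n = 3 each), or -1.23 on the log2 scale (SE 0.04, limma adjusted p = 4.02e-12). Cdh1 fell from 214 ± 2.26 to 127 ± 2.80 (log2 fold change -0.75, SE 0.04). Bspry was lower by 1.21 (SE 0.07, and -0.57 averaged over its probe sets) and Lad1, an anchoring filament gene, by 0.84 (SE 0.05). The exception was Dsp, the desmoplakin gene, which rose by 0.11 (SE 0.03). The other 8 genes tested, Cldn3 (-0.07, SE 0.05) among them, did not pass.

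**Figure D4:**
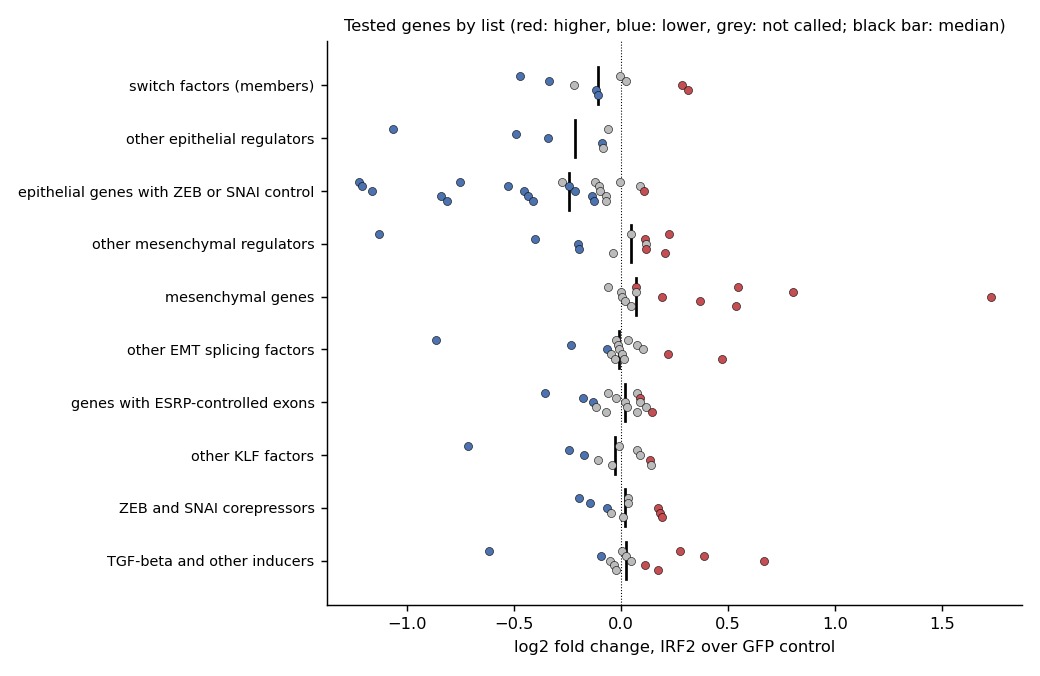
log2 fold change (horizontal axis, labelled IRF2 over GFP control) of every tested gene of each list, with the list's median as a black bar; red points were called higher, blue lower and grey neither. The epithelial genes with ZEB or SNAI control have a median of -0.24 and the mesenchymal genes one of 0.07, while mesenchymal regulators spread to both sides.

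Promoters of that list were searched for the same E2-box, to show the letters that lie before their starts. Of the 32 symbols, 23 had an entry, and 15 of these held CACCTG or CAGGTG in at least 1 window. The share was 17 of 30 windows, or 56.7%, against the 17.2% of all windows. The genes were listed for being known ZEB or SNAI targets, so this share is no independent evidence. Of the 14 that fell, 9 had an entry and 6 of these held the motif, a share near the 15 of 23 in the whole list. Listed genes that did not fall held it as well. Over all genes in the promoter table, 5252 of 27025 held it. The stretches below come from Spint2 (chr7:29282016-29282081, minus strand), Crb3 (chr17:57062053-57062118, plus strand) and Epcam (chr17:87635762-87635827, plus strand), with E2-boxes in capitals. Crb3 and Epcam were chosen for display after their values were seen.
Spint2: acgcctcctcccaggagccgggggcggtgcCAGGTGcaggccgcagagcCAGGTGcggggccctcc
Crb3: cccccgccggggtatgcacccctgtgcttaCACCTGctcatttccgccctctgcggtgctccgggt
Epcam: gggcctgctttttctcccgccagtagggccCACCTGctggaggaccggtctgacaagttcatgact
Crb3, an apical polarity gene, fell by 0.43 (SE 0.04). Epcam, an epithelial adhesion gene, fell by 0.81 (SE 0.11) in its brightest probe set and differed by -0.04 in its other one. No binding was measured here.

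Other mesenchymal regulators moved in both directions, as the mesenchymal factors themselves did. Of 14 listed, 11 were tested. Of these, 4 rose and 4 fell, against 16.5% and 19.8% of all genes tested, at a median of 0.05. Prrx1, a homeobox gene of mesenchyme, fell from 205 ± 3.43 to 93.5 ± 5.02 (SD, n = 3 each), or -1.13 on the log2 scale (SE 0.05, limma adjusted p = 1.33e-10), and its other 4 tested probe sets lay between -1.21 and -0.76. Twist2, the paralogue of Twist1, fell by 0.20 (SE 0.04). The E-protein gene Tcf3 rose by 0.22 (SE 0.04) and the chromatin factor gene Hmga2 by 0.21 (SE 0.02). Snai1, the paralogue of Snai2, was below the filter at 9.13 and 9.48 ± 0.400 (SD, n = 3), the 3 control arrays being identical to the digits deposited.

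Of 18 mesenchymal genes listed, 13 were tested; 7 rose and none fell, against 16.5% and 19.8% of all genes tested, at a median of 0.07. Fn1, the fibronectin gene, rose from 1676 ± 14.4 to 2926 ± 54.3 (SD, n = 3 each), or 0.80 on the log2 scale (SE 0.02, limma adjusted p = 8.05e-13). The matrix gene Sparc rose by 1.73 (SE 0.07), although 1 of its 3 tested probe sets gave -0.0094. The receptor tyrosine kinase gene Axl rose by 0.55 (SE 0.03; 0.29 averaged over its probe sets) and the matrix gene Tgfbi by 0.54 (SE 0.04). Vim, the vimentin gene, read 9574 ± 63.8 in the GFP group and 10035 ± 208 in the other (SD, n = 3 each), and rose by 0.07 (SE 0.02). Cdh2, the N-cadherin gene, differed by -2.43e-04 (SE 0.05) and did not pass.

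Of 17 symbols listed for other splicing factors tied to the switch, 15 were tested. Of these, 2 rose, 3 fell and 10 were not called, with a median of -0.0091. This is near the 36.3% called over all genes tested. Mbnl3, of the muscleblind family of exon regulators, fell from 97.1 ± 2.72 to 53.3 ± 1.68 (SD, n = 3 each), or -0.86 on the log2 scale (SE 0.06, limma adjusted p = 1.35e-08), with its other 2 tested probe sets at -0.72 and -0.64. Mbnl1 fell by 0.23 (SE 0.02); that call was lost on averaging its probe sets (-0.19, adjusted p = 0.0691, at the top of a range over its alternatives from 1.26e-07). Khdrbs3, an RNA-binding regulator of exon choice, rose by 0.47 (SE 0.06), and the neuronal-type splicing repressor gene Ptbp2 by 0.22 (SE 0.04; 0.13 averaged over its probe sets). The mean of probe sets left 3 of these 5 calls.

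All 15 listed genes whose exons ESRP proteins control were tested; 2 rose, 3 fell and 10 were not called, at a median of 0.02. That count too is near the 36.3% called over all genes tested, and the median size of change was 0.09 in the list as over all genes. Fnip1, a folliculin partner, fell by 0.35 (SE 0.05), Slk, a kinase gene, by 0.18 (SE 0.03; -0.0986 averaged over its probe sets) and Numb, a Notch regulator, by 0.13 (SE 0.04). The Numb call was lost without the replicate 3 GFP control array (-0.12, limma adjusted p = 0.0557, at the top of a range over its alternatives from 0.00754). The cortactin gene Cttn rose by 0.15 (SE 0.02). These probe sets give a gene's signal and not its exon use, so the activity of ESRP proteins was not measured.

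Other Krüppel-like factors, the ZEB and SNAI corepressors and the signals that induce the switch each moved both ways. Calls over all genes tested came to 36.3%, 16.5% higher and 19.8% lower. Of 12 further Klf genes, 10 were tested, with 1 higher and 3 lower and a median of -0.03: Klf12 fell by 0.72 (SE 0.07; -0.36 averaged over its probe sets), Klf6 by 0.25 (SE 0.02; -0.13 in that mean) and Klf9 by 0.17 (SE 0.02), and Klf10 rose by 0.13 (SE 0.03). Of 10 corepressors, all tested, 3 rose and 3 fell (median 0.02). Ctbp1 fell by 0.20 (SE 0.02) while its paralogue Ctbp2 rose by 0.19 (SE 0.03), both encoding the C-terminal binding proteins that ZEB factors recruit. The Polycomb gene Suz12 fell by 0.14 (SE 0.03), with its other tested probe sets between -0.47 and 0.22, and Sin3a rose by 0.17 (SE 0.03).

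Among 13 inducers and transducers of transforming growth factor beta and related signals, all tested, 5 rose and 2 fell (median 0.02). The shares of all genes tested were 16.5% and 19.8%. Tgfb2 rose from 43.5 ± 3.47 to 69.0 ± 3.75 (SD, n = 3 each), or 0.67 on the log2 scale (SE 0.07, limma adjusted p = 3.20e-06), and the signal transducer gene Smad3 by 0.39 (SE 0.03; 0.25 averaged over its probe sets). Tgfb1 rose by 0.28 (SE 0.05), a call lost on averaging its probe sets (0.18, adjusted p = 0.0626, at the top of a range over its alternatives from 2.19e-04). Id4, an inhibitor of helix-loop-helix factors such as Twist1, fell by 0.62 (SE 0.03).

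Markers of cell type were read beside the factors. For scale, 16.5% of all genes tested were called higher and 19.8% lower. Of 12 intestinal epithelial markers, 9 were above the filter, 2 rose and 1 fell. The intensity summed over all 12 was 14346 to 14489 in the GFP group and 15944 to 16087 in the group labelled IRF2. Most of that sum came from the keratin genes Krt8, Krt18 and Krt19. Their means were 3533, 5015 and 5422 in the GFP group and 4999, 5306 and 5335 in the other. Krt8, a simple-epithelium keratin gene, rose by 0.50 (SE 0.02), Krt18 by 0.08 (SE 0.02; limma adjusted p = 0.0866 without the intensity trend, in a range of 0.00104 to 0.0866) and the adhesion gene Cdh17 fell by 0.57 (SE 0.03); Vil1, Krt20 and Cdx1 were below the filter. Simple-epithelium keratins were thus measured in the culture, and villin, a brush border gene, was not above the filter. Zeb1, Zeb2, Snai2 and Twist1 are also expressed by fibroblasts. Of 11 fibroblast markers, 5 were tested, 1 rose and 1 fell, and the sum over all 11 was 169.5 to 178.5 and 174.9 to 183.7; Col1a1, Lum, Thy1, Pdpn, Fap and Postn were below the filter. Pdgfra rose by 0.70 (SE 0.10; 0.36 averaged over its probe sets) and Pdgfrb fell by 0.40 (SE 0.08), a call lost in that mean (-0.16, limma adjusted p = 0.0727, at the top of a range over its alternatives from 2.53e-04).

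Among immune and endothelial markers, 1 of each list passed, where 36.3% of all genes tested were called. Of 11 immune marker symbols, 6 were tested and 1 rose, with a sum over the 9 on the array of 279 to 315 and 309 to 319. Cd14 rose by 0.18 (SE 0.06, limma adjusted p = 0.035), a call lost in 6 of its 14 alternatives (adjusted p 0.0059 to 0.152). Ptprc, the pan-leukocyte gene, was below the filter. Of 8 endothelial markers, 4 were tested and 1 fell, with a sum over all 8 of 153 to 164 and 148 to 163: Egfl7 fell by 0.22 (SE 0.07, limma adjusted p = 0.0315), a call lost in 4 of its 14 alternatives (adjusted p 0.00722 to 0.161), and Pecam1 was below the filter. The part of these cell types in the results was not tested.

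The genes most like the extremes were read from Pearson's r of log2 intensity over the 6 arrays, which share the group difference. For Esrp2, the factor with the largest fall, these were Tgoln1 (r = 0.9993), Serpinb5 (0.9987) and Mrpl33 (0.9982), with changes of -0.17, -0.66 and -0.25. For Zeb1, the factor with the largest rise, they were Mfsd1 (0.9994), B4galt1 (0.9991) and Pitpnb (0.9990), with changes of 0.26, 0.22 and 0.20. The pattern was widely shared: 988 of the genes tested had an r above 0.95 with Esrp2 and 824 with Zeb1.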

How the data were processed

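Per the labels' protocols, total RNA was extracted with Trizol and labelled with biotin. The authors deposited a linear intensity per probe set. The submitters' processing notes name MAS5 with no role or version, and the scaling of the values was not otherwise stated. No detection calls were used. Of 45037 non-control probe sets, 34945 had 1 symbol in GEO's platform annotation, 932 several and 9160 none; no probe set with several symbols named a member. Symbols were updated through a RefSeq gene table of GRCm38.p6. The brightest probe set by mean log2 stood for a gene, and those at or under the 40th percentile were left out. limma 3.58.1 in R 4.3.3 (lmFit, eBayes with an intensity trend) was fitted on log2 intensity with the group as the only term, over all 6 arrays (4 residual degrees of freedom), two-sided, once per gene and once per probe set. It was run on simulated data with independent noise and few changed genes, a setting unlike these data that does not check the calls. The number of arrays limits the precision. Intervals are 95% intervals of the fit.

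The members, the gene lists and the rule for named genes were chosen with earlier results of these data known. The numbers listed count symbols. Qk and Qki, Patj and Inadl, and Adgre1 and Emr1 are each a pair of symbols of a single gene, and both are counted as listed. The rule took all members, the called members with the lowest p of every list, 4 at most, up to 2 bright uncalled ones where fewer were called, and the 3 genes most like the members with the largest fall and rise. Named outside it were Rbm47, Ovol2, Dsp, Cldn3, Epcam, Crb3, Snai1, Vim, Cdh2, Vil1 and other markers below the filter, after their values were seen. Alternatives were no filter, a filter at the 60th percentile, 16 added before the log, quantile normalization, no trend, robust eBayes, a replicate block, leaving out each array, and the mean of probe sets.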

Additional observations from a re-analysis of the deposited data

How the results depend on the processing

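The count of called factors was 6 of 9 and lay between 4 (mean of probe sets) and 7 over the alternatives, between 6 and 7 when 1 array was left out. The count of called probe sets, 8 of 20, lay between 6 (no intensity trend) and 9, and the count over all genes, 4642, between 3800 and 4679. Esrp2, Zeb1, Snai2 and Twist1 kept their direction and call in all 14 alternatives of the gene-level test; Zeb2 lost its call in the mean of probe sets, and Klf5 there and without the trend. With the replicate block, 7 factors and 9 probe sets were called; of the factors it added Elf3 (adjusted p = 0.0139) and lost none. The deviations of same-numbered arrays correlated at 0.07, -0.08 and -7.71e-04, and those of differently numbered arrays between -0.11 and 0.11. With so few arrays this cannot settle whether the numbers pair them. Among the values counted below, signs turned only for differences not called in the main setting. Leaving out 1 array, Grhl2 ran from -0.0479 to 0.0362, the second Klf4 probe set from -0.0157 to 0.0315, the Zeb2 probe set with the widest spread from -0.3279 to 0.0248, Cd68 from -0.0516 to 0.0755 and Csf1r from -0.1082 to 0.0389, and averaged over probe sets Csf1r was 0.0132. The factors, their probe sets and the genes named from the lists by the rule were counted over the alternatives. Genes named outside the rule and those most like Esrp2 and Zeb1 were not. In that count 1114 values were counted as unchanged, 30 lost the call, 6 gained one and 12 turned sign. Another 2, both of Esrp1 with 16 added, moved by more than the spread. What lay below the filter in the main setting was judged by the size of its shift alone. Sign turns of the dimmest Grhl2 (-0.014 to 0.1137), Klf5 (-0.0889 to 0.0576) and Zeb2 (-0.0377 to 0.0248) probe sets thus count as unchanged. So does Esrp1, which passed with no filter. The cause of these changes was not tested. The counts of list members, recomputed under the same alternatives after they were seen, ran from 11 to 15 lower for the ZEB and SNAI target list and from 6 to 7 higher for mesenchymal genes. Dim probe sets, such as that of Esrp1, are limited by signal over background.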
